A study of Mus musculus with 17 samples.

Results

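The interferon regulatory factors (IRFs) are a family of transcription factors, and their mRNA was followed here through every probe set that the array annotation assigns to exactly 1 of the symbols Irf1, Irf2, Irf3, Irf4, Irf5, Irf7, Irf8 and Irf9. The rule gave 12 probe sets of 8 genes, out of 45037 probe sets on the array and 17097 genes with a probe set of 1 symbol. Irf3 had 3 probe sets, Irf4 and Irf8 had 2 each and every other gene had 1. Levels were read on 17 Affymetrix arrays in 6 groups, and each array held 1 pool of sorted mouse cells. All mice were 6 to 10 weeks old. Bone marrow gave myelo-dendritic progenitors (MDPs), regarded as a precursor of macrophages and dendritic cells and sorted as lineage-, sca1-, CD127-, CD117+, MCSFR+. They came as 3 pools labelled IRF8 knockout, 2 pools without expression of the VENUS reporter, 3 pools with VENUS expression and 3 wild-type pools. IRF8-deficient is also the genotype label of both VENUS groups, and the sources used here do not say whether that is the reporter allele itself. From the spleen of wild-type mice came 3 macrophage pools (CD11c-, CD11b+, MCSFR+) and 3 granulocyte pools (CD11c-, CD11b+, Ly6C+, MCSFR-). A pool held cells of 5 mice in the spleen, knockout-labelled and wild-type groups. For the VENUS pools the sources used here give no such number.

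IRFs share an N-terminal DNA-binding domain that reads GAAA repeats, the core of the interferon-stimulated response element (ISRE). IRF3 and IRF7 are activated by phosphorylation downstream of nucleic acid and Toll-like receptors and switch on interferon genes, and IRF5 acts on inflammatory cytokine genes downstream of Toll-like receptors. IRF9 is the DNA-binding subunit of the complex that carries the type I interferon signal to the ISRE. IRF1 is induced by interferon gamma, and IRF2 competes with it for the same sites. IRF4 and IRF8 bind DNA weakly alone and pair with PU.1 or with BATF and JUN proteins. IRF8 is the member best known in myeloid progenitors, where its loss in mice gives fewer monocytes and dendritic cells and more granulocytes. An array reads mRNA and not these protein activities.

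Promoter sequences are shown for the 3 members whose window before the transcription start held a match to a motif of the interferon and IRF pathways. The windows are the 250 bases before each start that the promoter set used here gives for the 8 genes, 11 in all, on the mouse build GRCm38.p6. Both strands were searched for the ISRE core, which is GAAA, any 2 bases and GAAA, for the STAT site GAS, TTCNNNGAA, and for the Ets-IRF composite element EICE, which is GGAA, any 2 bases and GAAA. Among all 32851 promoters of the table, 2.98% held the ISRE core, 7.02% the GAS and 2.3% the EICE. Of the members' windows, 1, 3 and 1 held them. Capitals mark the matches, the sequences run 5′ to 3′ on the plus strand, and positions are counted back from the start site. The Irf1 window, chr11:53769764-53770013, had a GAS at 90 to 82 bases before the start. The Irf2 window, chr8:46739495-46739744, had an EICE at 247 to 238, an ISRE core that overlaps it at 241 to 232 and a GAS at 224 to 216. The Irf8 window, chr8:120736108-120736357, had 2 GAS matches, at 171 to 163 and at 153 to 145.
Irf1: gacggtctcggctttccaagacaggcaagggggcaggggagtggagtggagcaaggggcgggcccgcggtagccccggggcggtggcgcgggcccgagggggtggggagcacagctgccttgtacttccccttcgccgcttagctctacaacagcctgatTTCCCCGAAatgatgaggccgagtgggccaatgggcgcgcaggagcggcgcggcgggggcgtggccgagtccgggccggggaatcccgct
Irf2: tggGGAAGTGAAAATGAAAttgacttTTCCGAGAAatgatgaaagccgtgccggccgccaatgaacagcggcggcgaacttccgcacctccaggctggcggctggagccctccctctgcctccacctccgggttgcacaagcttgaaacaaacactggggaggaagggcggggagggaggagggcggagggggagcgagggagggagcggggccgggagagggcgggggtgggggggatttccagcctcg
Irf8: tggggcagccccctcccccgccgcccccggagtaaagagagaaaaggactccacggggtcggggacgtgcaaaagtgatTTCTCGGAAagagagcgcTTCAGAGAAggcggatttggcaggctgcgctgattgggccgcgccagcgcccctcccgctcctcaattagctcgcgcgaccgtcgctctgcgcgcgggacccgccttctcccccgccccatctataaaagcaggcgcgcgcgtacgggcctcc
The other windows of these genes (Irf1 and Irf8 have another start each) and those of Irf3, Irf4, Irf5, Irf7 and Irf9 had no match in these letters. The only Irf5 window, chr6:29526375-29526624, lies inside the RefSeq gene, which starts at 29526130. The only Irf7 window, chr7:141266425-141266674 on the minus strand, overlaps the RefSeq gene, which ends at 141266499. The bases before the outermost start of these genes were thus not searched in full. A match describes the sequence and does not show a bound site.

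Levels are log2 RMA values as the authors deposited them, and a mean carries its SD over pools. A difference is the mean of the group named first minus that of the group named second. It was tested with limma over all 45037 probe sets and all 17 arrays, and called at a Benjamini-Hochberg adjusted p under 0.05. SE is limma's standard error. With 2 or 3 pools a group, the p-values reflect only how far pools spread, and precision is limited by that number. Levels of different probe sets are not set against each other, since probes differ in affinity. An array reads RNA of a sorted population, so fewer cells of a type and less RNA per cell cannot be told apart.

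By markers of other cells, pool 3 of the wild-type MDPs was unlike pools 1 and 2. Its mean over 8 measured granulocyte markers was 10.27, against 6.50 and 6.06 in those pools. Over 8 erythroid and megakaryocyte markers it had 8.57 against 5.72 and 6.39, and over 5 mast cell and basophil markers 7.05 against 4.17 and 4.19. It was the highest of the 3 wild-type pools in 7 of the 12 IRF probe sets. The VENUS-negative pools also carried erythroid and megakaryocyte markers (10.17 and 9.24, against 5.51 to 5.93 in VENUS-positive pools) and mast cell and basophil markers (7.52 and 7.61, against 3.93 to 4.20). Granulocyte pools had NK cell markers at 7.18, 7.29 and 8.0, against 4.34 to 5.61 in wild-type MDPs, and all 5 of these markers were called higher. Macrophage pools had macrophage markers at 6.34 to 6.69, against 5.05 to 5.78 in granulocytes, with only 3 of 8 called higher. The same macrophage pools had dendritic cell markers at 7.54 to 7.79, against 5.42 to 6.00 in granulocytes, with 2 of 5 measured markers called higher. What these cells add to the IRF levels was not tested, and values without wild-type pool 3 are given with the comparisons it enters.

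**Figure D1:**
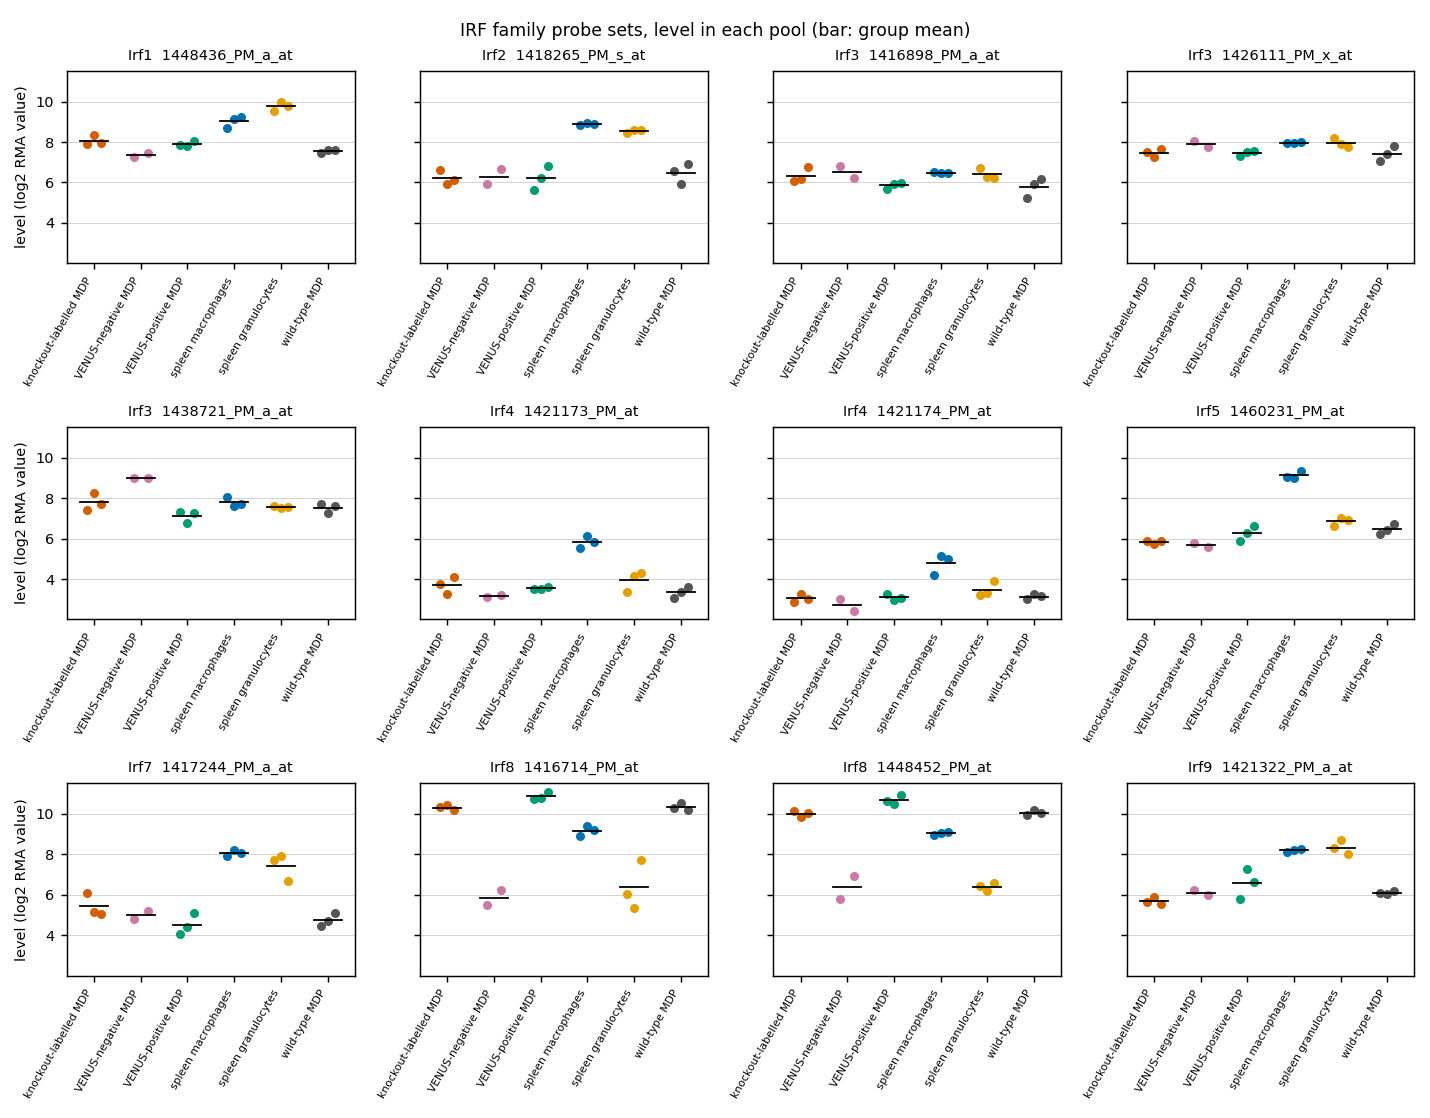
Level (log2 RMA value, vertical axis) of each of the 12 IRF probe sets in each of the 17 pools, 1 point per pool, with a bar at each group mean. Macrophages and granulocytes lie above all MDP groups for Irf1, Irf2, Irf7 and Irf9, macrophages alone stand high for Irf4 and Irf5, and VENUS-negative MDPs and granulocytes stand low for both Irf8 probe sets.

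Irf8, the gene named in the labels of 3 MDP groups, was examined first. Probe set 1416714_PM_at read 10.32, 10.42 and 10.18 in knockout-labelled MDPs, 5.49 and 6.25 in VENUS-negative MDPs and 10.72, 10.81 and 11.10 in VENUS-positive MDPs. The same probe set read 8.89, 9.41 and 9.21 in macrophages, 6.04, 5.36 and 7.70 in granulocytes and 10.27, 10.56 and 10.19 in wild-type MDPs. Irf8 mRNA was thus high in 3 of the 4 MDP groups, somewhat lower in macrophages, and low in granulocytes and VENUS-negative MDPs. Probe set 1448452_PM_at gave the same order of the 6 group means, from 10.68 ± 0.21 (n = 3) in VENUS-positive MDPs down to 6.36 ± 0.77 (n = 2) in VENUS-negative MDPs.

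Neighbours in that order were not all separated. VENUS-positive and wild-type MDPs did not pass the test against each other on either Irf8 probe set (differences 0.54 and 0.61, adjusted p = 0.943 and 0.716). Knockout-labelled MDPs stood above macrophages by 0.98 on 1448452_PM_at (adjusted p = 0.0055) and by 1.14 on 1416714_PM_at (adjusted p = 0.0792). Macrophages stood above granulocytes on both, and VENUS-negative MDPs and granulocytes were not separated (granulocytes minus VENUS-negative MDPs 0.50 and 0.04, adjusted p = 0.45 and 0.922).

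Irf8 levels of knockout-labelled and wild-type MDPs did not differ beyond the spread between pools. The difference was -0.03 (95% interval -0.93 to 0.87) on 1416714_PM_at and -0.05 (-0.52 to 0.43) on 1448452_PM_at, with limma adjusted p = 0.998 and 0.996. The sources used here do not place either probe set against the disrupted stretch of the gene, so these levels do not check the label.

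In all, 0 of 12 IRF probe sets were called between knockout-labelled and wild-type MDPs, on a background of 0.575% of all probe sets called, 0.266% higher and 0.309% lower. By limma's unadjusted p under 0.05 there were 3, of Irf1, Irf3 (1416898_PM_a_at) and Irf5, as for 3628 of all 45037 probe sets, and the count of calls stayed at 0 under every alternative tried. Irf1, the interferon gamma-induced member, read 7.90, 8.36 and 7.93 in knockout-labelled against 7.45, 7.63 and 7.62 in wild-type MDPs (difference 0.50, SE 0.17, adjusted p = 0.362). Irf5 read 5.89, 5.72 and 5.89 against 6.23, 6.44 and 6.75 (difference -0.64, SE 0.19, adjusted p = 0.242). Irf9 read 5.64, 5.90 and 5.57 against 6.08, 6.04 and 6.20 (difference -0.40, adjusted p = 0.836). In these 3 probe sets the pools of the groups did not overlap, and over all probe sets 13.6% had pools that did not overlap. The median difference of the members was 0.01, and that of all probe sets 0.01. Erythroid and megakaryocyte markers were at 4.07 to 4.25 in knockout-labelled pools, below all 3 wild-type pools, and granulocyte markers were at 8.01 to 8.89. Without wild-type pool 3 the differences were 0.53 for Irf1, -0.50 for Irf5, -0.35 for Irf9, and -0.11 and -0.06 for the Irf8 probe sets, with 0 members called.

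VENUS-negative and VENUS-positive MDPs differed in 3 of 12 IRF probe sets, 1 higher and 2 lower, against 4.44% of all probe sets called, 2.2% higher and 2.24% lower. The 2 lower ones are those of Irf8, given here as a description because the titles of both groups name IRF8 and the sort may rest on it. The group means differed by -5.01 on 1416714_PM_at and by -4.32 on 1448452_PM_at, and the pools lay far apart. The remaining call was a probe set of Irf3.

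Irf3 encodes the constitutively made factor that acts early in the response to viral nucleic acid, and its 3 probe sets gave different calls. Probe set 1438721_PM_a_at read 8.99 and 9.01 in VENUS-negative MDPs, against 7.33, 6.77 and 7.28 in VENUS-positive MDPs (3.67-fold higher, log2 difference 1.88, SE 0.24, adjusted p = 2.47e-04). The VENUS-negative pools were the highest of all 17 on this probe set, whose other pools ran up to 8.26. By contrast, 1416898_PM_a_at differed by 0.65 (adjusted p = 0.264) and 1426111_PM_x_at by 0.45 (adjusted p = 0.304). Both of these also had VENUS-negative pools above all VENUS-positive ones. The _x suffix marks a probe set that may bind related transcripts, and whether the 3 probe sets differ from each other in this contrast was not tested.

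Between the same groups, 6 of 8 markers of the erythroid and megakaryocyte lineages were called higher in VENUS-negative MDPs. Of the markers of mast cells and basophils, 3 of 5 were called higher there. Gata1, a factor of both erythroid and mast cell lineages, was at 9.16 in VENUS-negative and 4.64 in VENUS-positive MDPs. Wild-type MDP pool 3, with erythroid and megakaryocyte markers at 8.57, had 7.63 on 1438721_PM_a_at, between the other wild-type pools at 7.69 and 7.28. The part of such cells in the Irf3 signal was not tested. In RefSeq, Irf3 lies beside Bcl2l12 and Scaf1, genes looked at after the Irf3 value was seen. They differed by 0.50 (limma adjusted p = 0.224) and -0.21 (adjusted p = 0.864) between VENUS-negative and VENUS-positive MDPs. A link with the Irf3 signal was not tested.

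No other member was called between the VENUS groups. Irf1 read 7.26 and 7.48 in VENUS-negative against 7.87, 7.82 and 8.03 in VENUS-positive MDPs (difference -0.54, adjusted p = 0.169), and Irf5 read 5.78 and 5.57 against 5.91, 6.27 and 6.62 (difference -0.59, adjusted p = 0.166). In all, 8 of the 12 IRF probe sets had pools that did not overlap, where 27.7% of all probe sets did. That count and the median that follows include the Irf8 probe sets, on which the sort may rest. The members' median difference was -0.37, and that of all probe sets -0.01. Spi1, which encodes PU.1, the Ets-family partner of IRF4 and IRF8, was lower in VENUS-negative MDPs (6.35 ± 0.18 against 7.83 ± 0.11, adjusted p = 1.69e-04). Csf1r, the gene of the sorting receptor MCSFR, was lower (4.96 ± 0.19 against 7.89 ± 0.23, adjusted p = 3.87e-05) and Kit, which encodes CD117, was higher (8.29 ± 0.13 against 6.97 ± 0.39, adjusted p = 0.00885).

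Set against wild-type MDPs, VENUS-negative MDPs again had 3 of 12 IRF probe sets called, 1 higher and 2 lower, where 3.99% of all probe sets were called, 1.89% higher and 2.1% lower. Pools did not overlap in 5 of the 12, against 31.5% of all probe sets. The Irf8 probe sets are among these, and the VENUS-negative pools are the same ones whose sort may rest on IRF8. The 3 called were Irf3 1438721_PM_a_at (difference 1.47, SE 0.24, adjusted p = 0.00216) and the Irf8 probe sets (-4.48 and -3.70). Irf5 read 5.78 and 5.57 in VENUS-negative against 6.23, 6.44 and 6.75 in wild-type MDPs, a difference of -0.80 (SE 0.21) that narrowly missed the threshold (adjusted p = 0.0531). It passed with 1 probe set per gene (adjusted p = 0.0425) and with each array centred on its median (adjusted p = 0.0493). Without wild-type pool 3 the same comparison gave 3 calls, with Irf3 at 1.52 and Irf5 at -0.66 (adjusted p = 0.165). VENUS-negative MDPs were also higher than knockout-labelled MDPs on Irf3 1438721_PM_a_at, which read 8.99 and 9.01 in VENUS-negative and 7.42, 8.26 and 7.69 in knockout-labelled pools (knockout-labelled minus VENUS-negative -1.21, adjusted p = 0.00718).

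VENUS-positive MDPs differed from wild-type MDPs in 0 of 12 IRF probe sets, and limma called 0% of all probe sets in that comparison. At an unadjusted p under 0.05 it gave 2661 of 45037 probe sets, among them 1 member, Irf8 1448452_PM_at, which read 10.63, 10.49 and 10.91 in VENUS-positive against 9.96, 10.21 and 10.04 in wild-type MDPs. Pools did not overlap in 3 of the 12 IRF probe sets, that of Irf1 and those of Irf8, against 9.7% of all. With a trended and robust prior limma called 2 probe sets, and with 1 pool left out at most 9. The 95% interval of the difference was 0.14 to 1.09 for Irf8 1448452_PM_at and -0.36 to 1.43 for Irf8 1416714_PM_at. These intervals rest on the spread within all 6 groups, which on 1416714_PM_at was widest in granulocytes (SD 1.2). Irf9 had its widest spread here, at 5.81, 7.26 and 6.66 in VENUS-positive pools against 6.08, 6.04 and 6.20 in wild-type pools. Without wild-type pool 3 no IRF probe set was called either, with Irf8 at 0.60 on 1448452_PM_at and 0.46 on 1416714_PM_at and Irf9 at 0.52. The wild-type MDP arrays are shared by all comparisons made with them, so these are not independent of each other.

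**Figure D2:**
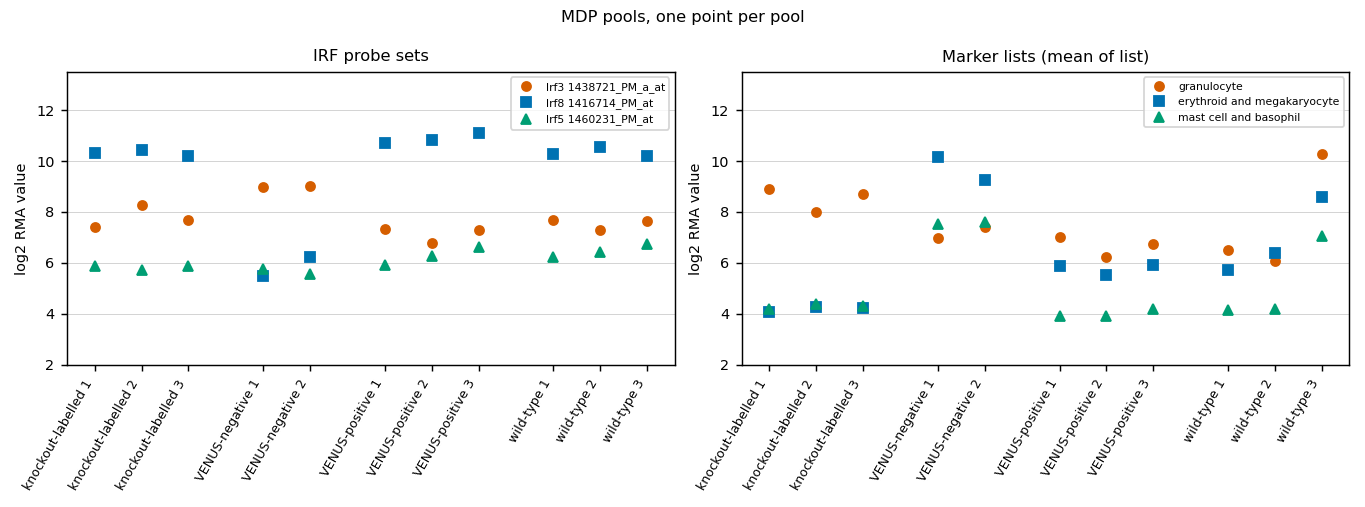
Left, levels (log2 RMA value) of Irf3 1438721_PM_a_at, Irf8 1416714_PM_at and Irf5 1460231_PM_at in the 11 MDP pools, and right, the mean level of the granulocyte, erythroid and megakaryocyte, and mast cell and basophil marker lists in the same pools. The VENUS-negative pools combine Irf8 at 5.49 and 6.25 with Irf3 at 8.99 and 9.01 and high erythroid and mast cell markers, and wild-type pool 3 is high in all 3 marker lists.

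Spleen macrophages had higher mRNA of most IRF genes than wild-type MDPs. Of 12 probe sets, 8 were higher and 1 lower, with a call in each of the 8 genes, while 18.9% of all probe sets were called, 9.61% higher and 9.28% lower. The median difference of the members was 1.55, and that of all probe sets 0.00. Pools did not overlap in 11 of the 12, against 39.8% of all probe sets. Dendritic cell markers were at 7.54 to 7.79 in macrophage pools, against 4.32 to 4.6 in wild-type MDPs, with 4 of 5 called higher, and their part in the IRF differences was not tested.

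The member with the largest difference was Irf7, the amplifier of type I interferon production. It read 7.93, 8.21 and 8.07 in macrophages against 4.47, 4.69 and 5.08 in wild-type MDPs (10.0-fold, log2 difference 3.32, SE 0.36, adjusted p = 1.2e-05). Irf5 read 9.04, 9.01 and 9.35 against 6.23, 6.44 and 6.75 (6.32-fold, difference 2.66, SE 0.19, adjusted p = 3.05e-07). Every macrophage pool lay more than 2 log2 units above every wild-type MDP pool on both probe sets. Irf4, which shares the PU.1 partnership with IRF8, was at 5.83 ± 0.30 in macrophages (5.52, 6.13 and 5.83) and at 3.35 ± 0.26 in wild-type MDPs on 1421173_PM_at (difference 2.48, adjusted p = 9.16e-06). Its other probe set read 4.22, 5.13 and 4.97 in macrophages and differed by 1.64. The wild-type MDP levels of Irf4 lie near the lower quartile of the arrays, 3.18 to 3.42, so no fold is given and the size of these differences is uncertain. Irf4 read under 4.33, the lowest array median, in every MDP pool and every granulocyte pool.

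Members of the interferon response arm were higher in macrophages as well. Irf2 read 8.82, 8.94 and 8.89 against 6.57, 5.90 and 6.91 in wild-type MDPs (difference 2.42, SE 0.30, adjusted p = 5.06e-05). Irf9 read 8.13, 8.23 and 8.29 against 6.08, 6.04 and 6.20 (difference 2.11, SE 0.27, adjusted p = 6.51e-05). Neither pair of groups overlapped, and Irf1 was higher by 1.46 (9.03 ± 0.29 against 7.56 ± 0.10, n = 3 each, adjusted p = 2.91e-05).

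Irf8 went the other way in this comparison. It was lower in macrophages by 1.03 on 1448452_PM_at (9.04 ± 0.09 against 10.07 ± 0.13, adjusted p = 0.00379) and by 1.17 on 1416714_PM_at, where the adjusted p was 0.0686 and 0.0027 in a fit of only these 6 arrays. Irf3 had 1 called probe set, 1426111_PM_x_at, at 7.97, 7.94 and 7.99 against 7.04, 7.42 and 7.78 (difference 0.55, adjusted p = 0.0438). That call was lost under 9 of 12 alternatives, including each pool left out but wild-type pool 3. Without wild-type pool 3, 10 IRF probe sets were called, Irf3 1416898_PM_a_at among them (difference 0.90, adjusted p = 0.0291).

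**Figure D3:**
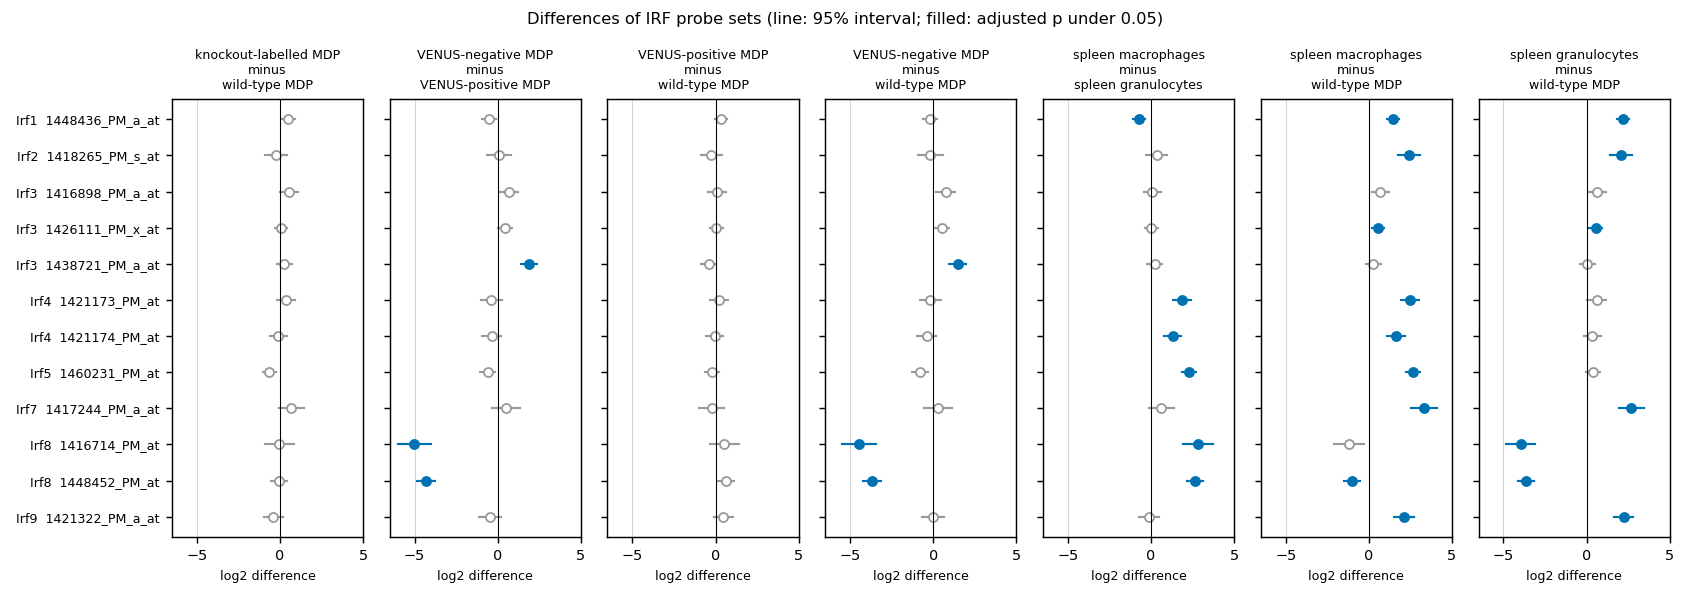
Log2 difference of each IRF probe set (horizontal axes) in the 7 comparisons, with its 95% interval as a line and filled points at an adjusted p under 0.05. In the 4 panels that compare MDP groups only Irf3 1438721_PM_a_at and Irf8 are filled, while the macrophage panel against wild-type MDPs has 9 filled points.

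Granulocytes also had higher Irf1, Irf2, Irf7 and Irf9 than wild-type MDPs, and far lower Irf8. Of 12 IRF probe sets 5 were higher and 2 lower, in 6 genes, against 38.4% of all probe sets called, 20.4% higher and 17.9% lower. Pools did not overlap in 7 of the 12, against 48.8% of all probe sets. The members' median difference was 0.57, and that of all probe sets 0.11. Irf1 read 9.51, 9.99 and 9.77 in granulocytes against 7.45, 7.63 and 7.62 in wild-type MDPs (4.57-fold, difference 2.19, SE 0.17, adjusted p = 2.26e-07). Irf7 read 7.71, 7.95 and 6.67 against 4.47, 4.69 and 5.08 (difference 2.70, SE 0.36, adjusted p = 3.16e-05). Granulocyte pool 3 was the lowest of its group for Irf7, yet still above every wild-type MDP pool. Irf2 read 8.46, 8.57 and 8.62 in granulocytes (difference 2.09) and Irf9 read 8.32, 8.69 and 8.0 (difference 2.23), with no overlap with wild-type MDP pools in either.

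Irf8 fell by 3.97 on 1416714_PM_at (6.37 ± 1.2 in granulocytes against 10.34 ± 0.19 in wild-type MDPs, SE 0.42, adjusted p = 3.51e-06) and by 3.66 on 1448452_PM_at. The wide SD came from granulocyte pool 3, at 7.70, where pools 1 and 2 had 6.04 and 5.36, while 1448452_PM_at read 6.44, 6.18 and 6.59 in the same pools. Irf5 did not pass the test (6.86 ± 0.22 against 6.47 ± 0.26, adjusted p = 0.128), although it did after a further quantile normalization (difference 0.70, adjusted p = 0.0114). Irf3 1426111_PM_x_at was called at a difference of 0.54 (adjusted p = 0.0288), and that call was lost under 8 of 12 alternatives. Irf4 1421173_PM_at differed by 0.60 (adjusted p = 0.0803) and was called without granulocyte pool 1, which had the lowest level of the 3. Without wild-type pool 3, 8 IRF probe sets were called, with Irf3 1416898_PM_a_at at 0.82 (adjusted p = 0.0266).

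Macrophages and granulocytes were parted by 4 IRF genes. Of 12 probe sets 5 were higher and 1 lower in macrophages, against 24.9% of all probe sets called, 13.6% higher and 11.3% lower. Pools did not overlap in 7 of the 12, against 44.5% of all probe sets. The difference of means uses no MDP array, but its SE and adjusted p rest on the spread within all 6 groups, MDPs included. In a fit of only the macrophage and granulocyte arrays the same 6 IRF probe sets were called. Irf5 was higher in macrophages at 9.04, 9.01 and 9.35 against 6.61, 7.04 and 6.91 in granulocytes (4.85-fold, difference 2.28, SE 0.19, adjusted p = 8.52e-07). Irf8 was higher by 2.80 and 2.63 on its probe sets (adjusted p = 1.79e-04 and 8.79e-07). Irf4 was called higher by 1.88 and 1.30, but its granulocyte levels all lie below the array medians, so the size of these differences is uncertain. Macrophages had the highest mean of Irf4 and Irf5 among the 6 groups. Of 5 measured dendritic cell markers, 2 were called higher in macrophage pools, and their part in the IRF differences was not tested.

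Irf1 was the only member called lower in macrophages than in granulocytes, at 8.71, 9.12 and 9.26 against 9.51, 9.99 and 9.77 (difference -0.73, SE 0.17, adjusted p = 0.00651). The highest macrophage pool lay below the lowest granulocyte pool. Of 5 NK cell markers 4 were also called lower in macrophages, as were 6 of 8 measured granulocyte markers. Their part in the Irf1 difference was not tested. For Irf2, Irf7 and Irf9 the groups of mature cells did not pass the limma test (differences 0.33, 0.63 and -0.12, adjusted p = 0.466, 0.227 and 0.789). The Irf2 pools still did not overlap, at 8.82, 8.94 and 8.89 in macrophages against 8.46, 8.57 and 8.62 in granulocytes. Their SDs were 0.06 and 0.08, while the SE of 0.30 rests on the spread within all 6 groups. Without any 1 pool, 6 IRF probe sets were called in each case.

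Within the 4 MDP groups the means of the IRF genes other than Irf8 and Irf3 spanned at most 0.91. Group means of Irf2 spanned 0.24 there and 2.66 over all 6 groups. For Irf9 they spanned 0.87 and 2.63, and for Irf7 0.91 and 3.55. The order of levels was granulocytes, macrophages, then MDPs for Irf1, with both steps called (adjusted p = 0.00651 and 0.00105). No step between neighbouring MDP groups was called for Irf1. For Irf2, Irf7 and Irf9 the step from the lower group of mature cells to the highest MDP group was called. For Irf5 and Irf4 only the step between macrophages and granulocytes was. On Irf3 1438721_PM_a_at the highest group was the VENUS-negative MDPs, above macrophages by 1.21 (adjusted p = 0.00192), and no lower step was called. On the other Irf3 probe sets no step between neighbours was called.

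The genes that act with the IRFs were read from lists of partners, cofactors, upstream sensors, receptors and targets, each gene by its probe set with the highest mean. Read in the same way, 17097 genes gave these shares of calls, against which the counts of the lists are to be read. In macrophages against wild-type MDPs 10.9% were higher and 11.5% lower, and in granulocytes against wild-type MDPs 21.3% and 22.6%. In macrophages against granulocytes 17.6% were higher and 12% lower, and in VENUS-negative against VENUS-positive MDPs 2.59% and 2.81%. Among 24 measured interferon-stimulated genes, 22 were higher and 0 lower in macrophages than in wild-type MDPs. The median difference of the 24 was 2.55, and that of the 17097 genes read in the same way was -0.003. Oas3, an antiviral oligoadenylate synthetase, differed by 4.79, Rtp4 by 4.56 and Oasl2 by 4.29. In granulocytes 17 were higher and 2 lower than in wild-type MDPs (median 2.54), with Rtp4 at 5.62, Oasl2 at 5.48 and Oas3 at 5.46. Between macrophages and granulocytes 10 were higher and 6 lower, led by Lgals3bp (4.02), Mx1 (3.34) and Gbp3 (2.72). In VENUS-negative against VENUS-positive MDPs 4 were higher and 3 lower, led by Ifi27l2a (-2.73), Samd9l (2.29) and Gbp3 (-2.13).

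Of 15 measured genes of the interferon receptors, JAK kinases, STATs and their inhibitors, 11 were higher and 0 lower in macrophages than in wild-type MDPs, and 9 were higher and 1 lower in granulocytes. Usp18, a brake on the type I receptor, differed by 3.10 in macrophages and 2.58 in granulocytes. Ifngr1, a chain of the interferon gamma receptor, differed by 2.46 in macrophages. Socs3, an inhibitor of JAK signalling, led in granulocytes with 4.94. VENUS-negative MDPs had 1 gene of this list higher and 3 lower than VENUS-positive MDPs, led by Ifngr2 (-1.63), Ifnar2 (-1.49) and the phosphatase gene Ptpn6 (-1.10).

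The sensors, adaptors and kinases upstream of IRF3, IRF5 and IRF7 were counted next. Of 17 measured, 9 were higher and 0 lower in macrophages than in wild-type MDPs, led by Tlr7 (2.92), Tlr4 (2.81) and Ifih1 (2.61), which sense viral RNA or lipopolysaccharide. In granulocytes 4 were higher and 5 lower, with Tlr4 at 4.0, Ddx58 at 3.11 and Sting1, the adaptor for cytosolic DNA, at -3.14. Macrophages had 10 higher and 0 lower than granulocytes, led by Sting1 (3.47), Tlr7 (2.48) and Slc15a4 (2.34), a transporter needed for endosomal Toll-like receptor signalling. In VENUS-negative MDPs 1 was higher and 3 lower than in VENUS-positive ones, led by Unc93b1 (-3.11), the chaperone of endosomal Toll-like receptors, then Sting1 (-2.38) and Ddx58 (1.97).

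Among 13 partner transcription factors, 5 were higher and 2 lower in macrophages than in wild-type MDPs. Bcl6, a repressor, differed by 3.72, Jun by -2.28 and Batf, a partner of IRF4 and IRF8, by 1.51. In granulocytes 5 were higher and 4 lower, led by Bcl6 (4.48), Etv6 (-1.82) and Spi1 (1.81). Spi1 was also higher in macrophages than in wild-type MDPs (8.80 ± 0.17 against 7.55 ± 0.30) and lower than in granulocytes (9.35 ± 0.17). In VENUS-negative against VENUS-positive MDPs Spi1 was the only partner called, out of 13. Of 7 measured cofactors, 3 were higher and 2 lower in macrophages than in wild-type MDPs, led by Trim21 (1.60), Irf2bp1 (-0.99) and Irf2bpl (0.87).

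Knockout-labelled MDPs differed from wild-type ones in 4 genes of these lists, where 0.784% of the 17097 genes were called, 0.374% higher and 0.409% lower. The lists hold 24 measured interferon-stimulated genes, 15 of interferon receptors, JAK kinases and STATs, 17 upstream sensors, adaptors and kinases, 13 partners and 7 cofactors. Rtp4 (7.70 against 4.61, difference 3.08, adjusted p = 0.0037) and Gbp2 (1.49) were higher and Trim30a (-1.34) was lower among interferon-stimulated genes, and Ifngr1 was higher (1.29, adjusted p = 0.0292). Without wild-type pool 3, an alternative chosen after seeing the data, Rtp4 was at 3.41 (adjusted p = 0.0033), Trim30a at -1.18 (adjusted p = 0.023) and Ifngr1 at 1.43 (adjusted p = 0.0321), while Gbp2, at 1.33, was no longer called (adjusted p = 0.0975). With only the 6 arrays of these groups none of the 4 was called (limma adjusted p = 0.0726 to 0.219). The list medians ran from -0.04 to 0.17. In VENUS-positive against wild-type MDPs no gene of any list was called by limma, as for all probe sets.

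**Figure D4:**
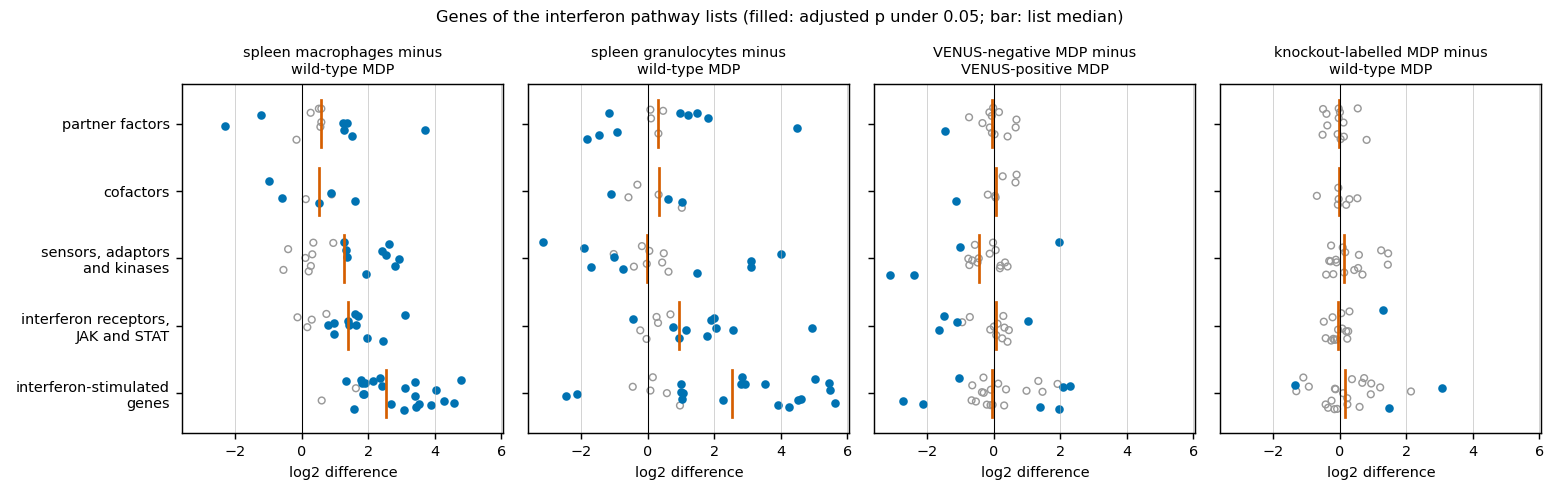
Log2 difference (horizontal axes) of each measured gene of 5 lists, 1 point per gene, filled at an adjusted p under 0.05, with a bar at the list median, in 4 comparisons. The interferon-stimulated genes centre on 2.55 in macrophages and 2.54 in granulocytes against wild-type MDPs, and on -0.06 and 0.17 in the VENUS and knockout comparisons.

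The genes most like each IRF over the 17 arrays were taken by Pearson correlation among 17096 other genes, as a description. The arrays are replicates of 6 groups, so a high r mostly repeats the order of the group means. For Irf8 they were Slc49a4 (0.944), Met (0.939), Cds1 (0.938), Il6st (0.930) and Pkib (0.928). Met, the hepatocyte growth factor receptor gene, averaged 4.55 in VENUS-negative and 9.45 in VENUS-positive MDPs, and 8.40 in macrophages and 3.60 in granulocytes. Slfn5, which belongs to the interferon-induced Schlafen family, was the nearest to Irf2 (0.981) and the third for Irf7 (0.958). Usp18 was the second for Irf9 (0.959), Ahr the second for Irf4 (0.962) and Btg1 the nearest to Irf1 (0.970). Irf5 was most like Tbc1d9 (0.978), and Irf3 1438721_PM_a_at most like St8sia6 (0.910), at 6.11 in VENUS-negative and 3.12 in VENUS-positive MDPs.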

How the data were processed

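Expression was measured on 17 arrays, 1 per pool of sorted cells. The deposited table holds log2 values per probe set, for which the submitters' processing notes name Affymetrix Expression Console and RMA. RMA corrects background, quantile-normalizes and summarises probes, so a change shared by most genes would be removed. Versions, scan dates and scanner files were not used here. Symbols came from the platform annotation (28898 probe sets with 1 symbol, 551 with several, 15588 with none), were checked against RefSeq GRCm38.p6, and all 12 member entries matched.

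Two-sided limma tests (version 3.58.1, R 4.3.3, functions lmFit and eBayes) used 1 model of all 17 arrays with 6 group means (11 residual degrees of freedom), with Benjamini-Hochberg adjustment over 45037 probe sets and no filter on low values. The script was tested on simulated data. Named genes are all member probe sets, Spi1, Csf1r and Kit, up to 3 called genes per list and comparison with the largest difference, and the genes of highest correlation. Met, Gata1, Bcl2l12 and Scaf1 values, and further values quoted for named genes, were chosen after they were seen. The members and lists were chosen with earlier results of these data known. Lists were read by 1 probe set per gene, and genes without a probe set of 1 symbol were not analysed here. Alternatives were a fit of only the compared arrays, the pool number as a block, 1 probe set per gene, leaving out dim probe sets, quantile normalization, median centring, a trended robust prior and leaving out each pool. For list genes called with knockout-labelled MDPs, 2 of these were added after seeing the data. Deviations of same-numbered pools correlated at -0.07 to 0.12, and the labels give no shared origin, so the numbers were not taken to pair pools.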

Additional observations from a re-analysis of the deposited data

How the results depend on the processing

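Of the member differences recomputed under the alternatives, 1006 stayed on their side of the threshold, 23 lost the call and 11 gained it. Of the 349 recomputed for a called difference 0 changed sign, and of the 691 for one not called 32 did, all of differences up to 0.24 in size. With only the arrays of the compared groups and the pool number as a replicate block, 0 IRF probe sets were called between VENUS-negative and VENUS-positive MDPs and 0 between VENUS-negative and wild-type MDPs, and over all 45037 probe sets that fit called 0 in both, with 2 pairs of pools left. The Irf3 and Irf8 differences there were 1.95, -4.90 and -4.20 against VENUS-positive MDPs. Without any 1 pool, member calls ran from 0 to 0 for knockout-labelled and for VENUS-positive against wild-type MDPs, 3 to 3 for VENUS-negative against each of VENUS-positive and wild-type MDPs, 6 to 6 for macrophages against granulocytes, 8 to 10 for macrophages and 6 to 8 for granulocytes against wild-type MDPs.

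Over all probe sets, the 259 calls of knockout-labelled against wild-type MDPs became 46 with only those arrays and 2 with the block. The 4 list genes called there, Rtp4, Gbp2, Trim30a and Ifngr1, had adjusted p = 0.0726, 0.141, 0.118 and 0.219 with only those arrays, an alternative chosen for these genes after the data were seen. The 1998 and 1798 calls of VENUS-negative against VENUS-positive and wild-type MDPs became 536 and 564 with only those arrays. With 1 probe set per gene, which tests fewer, calls were 155, 1003, 937, 5337, 4038 and 7720 for knockout-labelled against wild-type, VENUS-negative against VENUS-positive and wild-type, macrophages against granulocytes and wild-type MDPs, and granulocytes against wild-type MDPs. The calls that changed were those of Irf3 (1416898_PM_a_at and 1426111_PM_x_at), Irf4 1421173_PM_at, Irf5 and Irf8 1416714_PM_at described with their comparisons, beside the losses under the block; the cause was not tested. Irf4 in MDPs lies near the dim end of the arrays, where its level is least certain.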
